A study of Mus musculus with 24 samples.

Results

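The complement, coagulation and fibrinogen genes described here are 33 mouse genes out of 35413 genes measured in kidney RNA. They were chosen by name for their function, with earlier results of these data known, and all 33 were found. Those at the start of the classical and lectin pathways were C1qa, C1qb, C1qc, C1ra, C2, C4b and Masp1, and those of the alternative pathway were Cfb, Cfd and Cfp. C3, Hc (which encodes complement C5), C6 and C7 form the central and terminal steps, C3ar1 and C5ar1 are receptors, and Cfi, Cd55, Cd59a and Serping1 are regulators. Fga, Fgb and Fgg encode the chains of fibrinogen. F3, F7, F10, F5 and F13a1 serve clot formation, and F2r, a receptor for thrombin, was grouped with them. Tfpi, Tfpi2, Thbd and Procr were grouped as restraints on clotting.

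Complement is a cascade of plasma and membrane proteins in which C3 is split, its fragments tag surfaces, small fragments call in leukocytes through C3ar1 and C5ar1, and the terminal proteins open pores in membranes. Coagulation starts when tissue factor (F3) meets factor VII, and ends when thrombin cuts fibrinogen into fibrin, which factor XIII cross-links. The liver supplies most of these proteins in plasma, tubule cells of an injured kidney are known to make C3 and fibrinogen themselves, and C1q comes largely from macrophages.

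Kidney RNA was sequenced in 24 libraries from 2 experiments, in mice fed adenine, a purine base whose oxidation product crystallises in tubules and injures the kidney. The knockout experiment held chow-fed controls (n = 4), wild-type mice without Cre on adenine for 14 days (n = 6), and mice labelled ENPP1 knockout on adenine for 14 days (n = 6), in which tamoxifen was used to delete floxed Enpp1 through CAG-ERCre, a broadly expressed inducible Cre. The antibody experiment held mice on adenine for 14 days that were injected with control IgG (n = 4) or a monoclonal antibody to human ENPP1 (n = 4), each at 50 mg/kg. ENPP1 is an ectonucleotidase that splits extracellular ATP, and the design asks how its loss or blockade alters the injured kidney. The sources used here do not give the genotype of the chow group, the strain, sex and age of the mice, whether wild-type mice received tamoxifen, or whether mice given the antibody carried human ENPP1. Each library was counted as a separate animal; the labels do not say so, and p-values measure only the spread between these samples.

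The targeted gene was checked first, in CPM (estimated reads scaled to a common library total within each experiment). Enpp1 was at 55.8, 55.4, 55.6 and 49.9 CPM in chow, at 20.9, 21.3 and 24.9 CPM (lowest, median, highest) in wild-type adenine libraries and at 21.6, 22.4 and 24.7 CPM in those labelled knockout. The last groups overlapped, and their log2 difference was 0.05 ± 0.05 (SE; edgeR adjusted p = 0.466), so Enpp1 RNA did not separate them and every direction drawn below is for the libraries labelled knockout. Reads over a floxed gene's remaining exons can persist after deletion, and which exons are deleted is not given. In the antibody experiment Enpp1 was at 7.94, 8.86, 8.68 and 7.22 CPM with IgG and at 9.51, 2.62, 3.26 and 17.4 CPM with the antibody.

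Libraries held 21164187 to 28350038 estimated reads in the knockout experiment, against 44080791 to 50813749 in the other. The Y-linked gene Ddx3y lay between 0.157 and 0.544 CPM in the former and between 64.9 and 97.2 CPM in the latter, so the experiments differ in the sex of the mice as well as in depth, and levels are not compared across them. Markers of proximal tubule were abundant in every library, with a summed level of 1224 to 7097 deposited TPM, a unit that adjusts for transcript length. Compared with chow, all 8 proximal tubule and all 8 endothelial markers fell in wild-type adenine libraries, while all 6 markers of injured tubule and 9 of 10 macrophage markers rose. The 5 red blood cell markers, summed, stood at 1644 to 2073 TPM in chow, 40.6 to 96.0 TPM in wild-type adenine and 605 to 1363 TPM in libraries labelled knockout, without overlap, and none of the 5 passed between antibody and IgG. These markers thus moved with every comparison of the knockout experiment, and the part of blood content in the results was not tested. Platelet markers, summed, were at 10.5 to 12.7, 17.0 to 21.4 and 18.0 to 24.4 TPM in the same groups. Of 5 tested, 2 were called higher and 1 lower in wild-type adenine against chow, and 1 higher in labelled knockout against wild type. Their sum was at 7.34 to 14.4 TPM with IgG and 2.68 to 4.52 TPM with the antibody, 2 of 4 tested being called lower. In bulk tissue, fewer cells of a type and less RNA per cell cannot be told apart.

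In chow kidneys the order of levels per length was led by Cfb, which encodes the factor B protease of the alternative pathway, at 258 TPM on average. Serping1, the C1 inhibitor, followed at 34.7 TPM, and Cd59a, a membrane inhibitor of pore assembly, stood at 29.3 TPM, close to C2 at 29.0 TPM. C3 stood at 2.31 TPM, Fga at 5.08 TPM, Fgg at 3.82 TPM and Fgb at 0.350 TPM. With adenine in wild-type mice Cfb remained first at 276 TPM, and C3 was next at 183 TPM. In antibody-treated mice Fgg led at 484 TPM, followed by Fga at 435 TPM, Cfb at 384 TPM and C3 at 187 TPM. TPM served to order genes within a group, to sum marker lists and for ratios of fibrinogen chains. No change was called from it, because the median gene moved between groups. Marker sums set between groups are not corrected for this. The median log2 ratio was -0.13 for labelled knockout against wild type and -0.26 for antibody against IgG. Between chow and wild-type adenine the median ratio over 16916 genes moved by 1.00 on the log2 scale. Without correction for that shift, C2, Cfb and Thbd, which the count test below placed lower on adenine, had higher mean TPM there. For labelled knockout against chow the median ratio moved by 0.83, and Cfb, Serping1 and Thbd were reversed in the same way.

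Adenine in wild-type mice raised C3, C4b, all 3 fibrinogen chains, the receptors and most initiators, and lowered most regulators and anticoagulants. Of the 33 genes, 20 rose and 11 fell at an adjusted p under 0.05 in edgeR's quasi-likelihood test, Procr did not pass, and Hc was below the filter on low counts. Over all 16959 genes tested, 84.9% passed, 44.0% rising and 40.9% falling, so most kidney genes moved in this comparison and a call alone sets a member little apart. The median log2 change was 1.32 over the 32 members tested and 0.07 over all genes, and the median size of change was 1.64 against 0.84. CPM ranges of the groups did not overlap for 30 members, beside 75.2% of all genes.

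**Figure D1:**
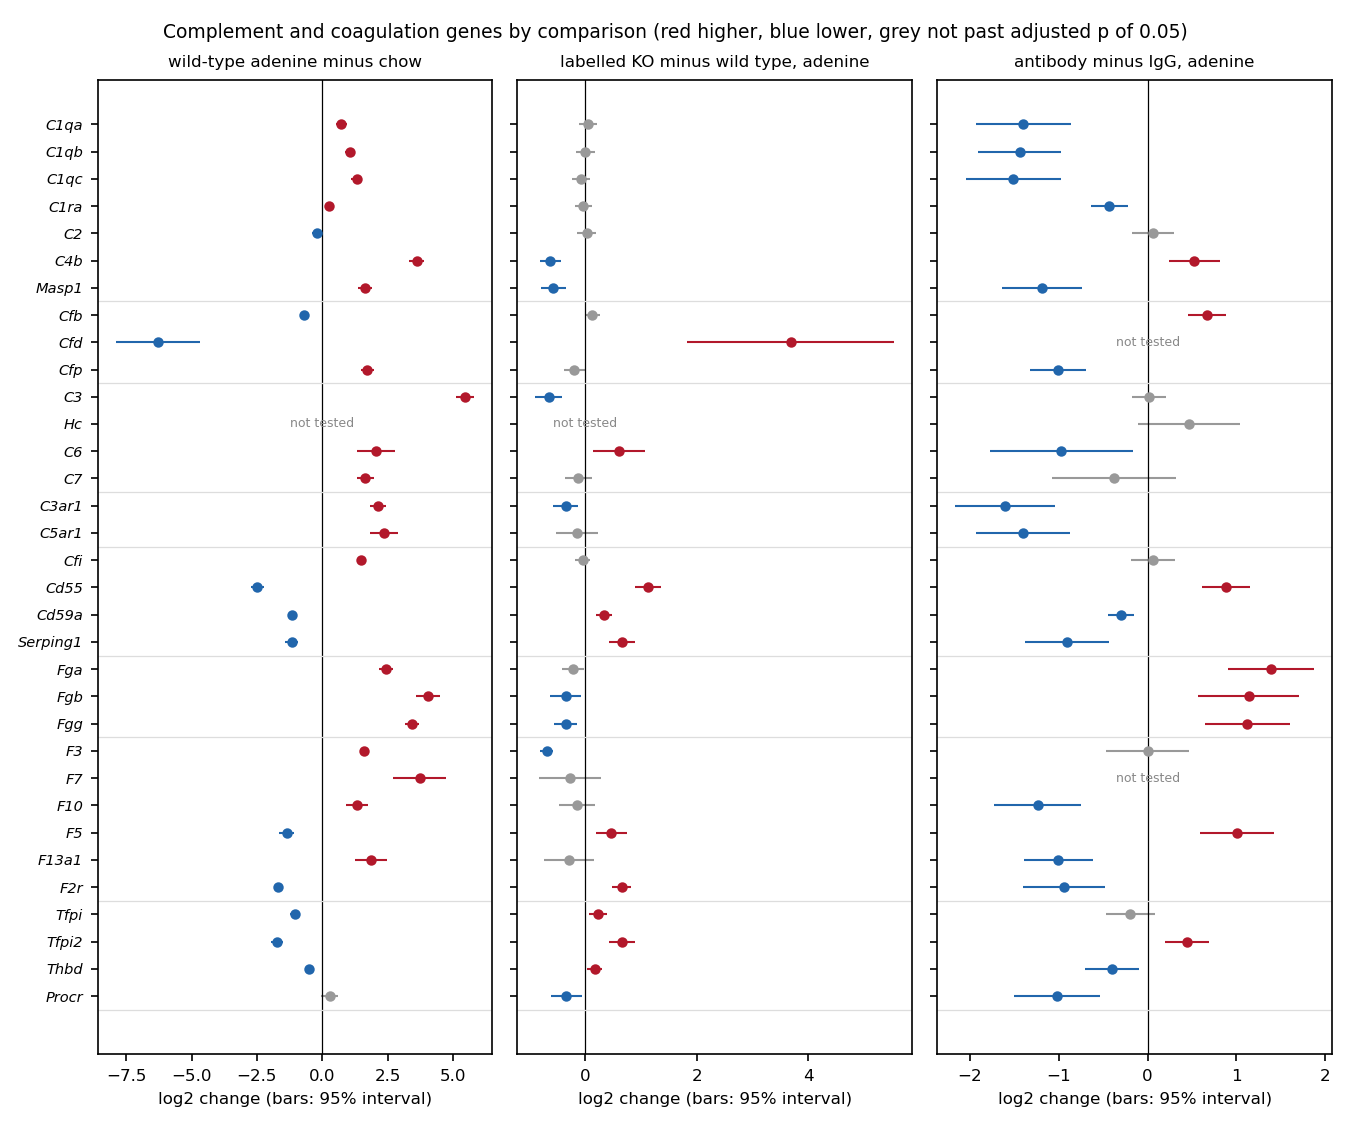
Log2 change of each of the 33 genes in 3 comparisons, one panel each with its own scale, with 95% intervals from edgeR as bars and genes in order of role. C3 at 5.46 and Cfd at -6.30 bound the first panel, the labelled knockout panel shows Cfd at 3.68 and Cd55 at 1.13 on the right, and the fibrinogen chains stand on the right of the antibody panel.

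C3, the protein on which all complement pathways converge, was at 15.3, 16.6, 19.1 and 15.7 CPM in chow and at 637, 732 and 845 CPM (lowest, median, highest) in wild-type adenine. Every adenine library lay far above every chow library, a 44.0-fold difference (log2 change 5.46 ± 0.17 SE, adjusted p = 1.89e-15). C4b, which joins C2 in the classical C3 convertase, was at 3.60, 4.35, 4.55 and 4.51 CPM in chow and at 44.9, 53.0 and 60.1 CPM on adenine, again without overlap and 12.3-fold higher (log2 change 3.62 ± 0.14 SE, adjusted p = 1.76e-14). C4a, a near-identical neighbour of C4b, was not among the quantified transcripts, so reads of either would be counted as C4b. C2 itself was at 76.3 to 84.5 CPM in chow and at 58.1 to 87.3 CPM on adenine, with overlap. Its log2 change of -0.22 ± 0.09 passed narrowly (adjusted p = 0.0329) and turned to 0.01 with upper-quartile scaling and to 0.16 with an offset for transcript length, and its call was lost when any of wild-type replicates 1, 4 or 5 or chow replicates 1, 2 or 4 was left out (adjusted p up to 0.107).

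The C1q chains A, B and C, which together recognise bound antibody and dying cells, rose by 1.66-, 2.08- and 2.48-fold, with log2 changes of 0.73, 1.05 and 1.31. C1qa ran from 32.4 to 39.1 CPM in chow and from 47.1 to 73.7 CPM on adenine, and the other chains showed the same separation. C1ra, a protease of the C1 complex, moved little (log2 change 0.27 ± 0.08, adjusted p = 0.00554). Masp1, a protease of the lectin pathway, rose from 2.62 to 3.5 CPM in chow to 7.95 to 11.4 CPM on adenine (log2 change 1.63 ± 0.13). A single Masp1 transcript held 83.5% to 95.4% of its reads in chow and 50.7% to 56.4% in wild-type adenine, so the isoform mix differed too. The macrophage markers, summed, stood at 43.2 to 44.2 TPM in chow and 206 to 397 TPM on adenine, a unit not corrected for the shift given above. In TPM, mean C1qa was at 27.0 and 82.9, C1qb at 18.5 and 71.2 and C1qc at 16.5 and 75.6. The part of the macrophage markers in the C1q rise was not tested. Csf1r, a defining macrophage receptor, was an exception in that list at 59.6 CPM in chow and 59.9 CPM on adenine.

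In the alternative pathway, Cfb fell from 376, 393, 371 and 373 CPM to between 208 and 267 CPM (log2 change -0.72 ± 0.07, adjusted p = 1.70e-08). Cfp, properdin, which stabilises the convertase and is made by leukocytes, rose from between 5.28 and 8.56 CPM to between 20.8 and 26.5 CPM (log2 change 1.73 ± 0.12). Cfd, factor D, known as an adipocyte protein, was at 4.65, 11.3, 3.02 and 6.74 CPM in chow, while the 6 wild-type adenine libraries held 12 reads in all and reached at most 0.150 CPM. Its fitted log2 change was -6.30 ± 0.77 (adjusted p = 3.36e-07). The filter on low counts was applied to all 16 libraries together, and the few reads on adenine leave the size of this change uncertain. The adipocyte gene Adipoq, a secreted hormone of fat, moved with it, from a mean of 0.973 to 0.0387 CPM, as did Cidec (1.01 to 0.236 CPM), whereas Plin1 was at 0.837 and 1.27 CPM. The part of fat attached to the tissue in the Cfd result was not tested.

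Of the genes described here, the terminal components C6, C7 and Hc were scarce. C8a, a terminal component outside these genes, was not scarce in chow and is given below. C6 ran from 0.192 to 0.445 CPM in chow and from 0.746 to 1.84 CPM on adenine (log2 change 2.05 ± 0.35), and C7 from 1.58 to 2.38 CPM and from 4.88 to 7.32 CPM (log2 change 1.64 ± 0.15). Hc was too low to test in this experiment, with 1 read over the chow libraries and 54 over the wild-type adenine libraries. The receptors for the C3a and C5a fragments rose together. C3ar1 moved from 2.99 to 3.24 CPM in chow to 9.99 to 18.2 CPM on adenine (4.41-fold), and C5ar1 from 0.681 to 2.13 CPM to 5.32 to 8.30 CPM (5.16-fold).

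Of 4 regulators, 3 fell. Cd55, which breaks up C3 convertases on membranes, was at 11.8, 11.4, 9.70 and 9.22 CPM in chow and at 1.49, 1.88 and 2.38 CPM on adenine. No adenine library came near the chow range, and the drop was 5.59-fold (log2 change -2.48 ± 0.12, adjusted p = 3.84e-13). Serping1 went from 82.3 to 90.4 CPM to 30.0 to 45.0 CPM (log2 change -1.18 ± 0.12), and Cd59a from 62.1 to 76.9 CPM to 27.3 to 35.4 CPM (log2 change -1.15 ± 0.07). Cfi, factor I, a plasma protease that inactivates C3b and C4b, was the exception and rose from 9.48 to 10.4 CPM to 24.4 to 29.5 CPM (log2 change 1.48 ± 0.08).

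Fibrinogen RNA rose in all 3 chains. Fga was at 16.1, 14.4, 16.9 and 15.3 CPM in chow and at 72.0, 85.9 and 101 CPM on adenine (5.38-fold). Fgb was at 1.53, 2.20, 1.68 and 2.64 CPM in chow and at 24.4, 32.6 and 44.3 CPM on adenine (16.4-fold). Fgg was at 8.35, 9.90, 9.05 and 9.02 CPM in chow and at 81.6, 97.7 and 118 CPM on adenine (10.8-fold). The groups did not overlap for any chain, and log2 changes were 2.43 ± 0.13, 4.03 ± 0.22 and 3.43 ± 0.13 (SE), with adjusted p-values of 1.24e-12, 1.75e-12 and 2.61e-14. Per length, the chains were not at equal levels: the ratio of Fga to Fgb TPM lay between 10.8 and 19.4 in chow libraries and between 4.38 and 5.65 in wild-type adenine libraries, the chow ratios resting on 160 Fgb reads in all. Fgg was below Fga in every chow library (TPM ratio 0.678 to 0.884) and above it in every wild-type adenine library (1.41 to 1.57).

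Genes of the hepatocyte list did not move as a block with fibrinogen. The list includes Cyp2e1, which mouse proximal tubule also expresses, and the cell source of these transcripts was not tested. Of 8 hepatocyte markers, 6 fell and 1 rose in this comparison, Alb (albumin) fell from a mean of 17.6 to 1.09 CPM, and Ahsg, a defining hepatocyte gene, did not exceed 0.105 CPM in any library of this experiment. The direction of the fibrinogen chains was therefore opposite to that of albumin.

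The bases upstream of the start sites of the fibrinogen chains and of C3, the genes with large rises, are shown because these genes are known targets of the acute-phase factors STAT3 and C/EBP in liver. They are the 250 bases before the start site in RefSeq's annotation of GRCm38.p6, an earlier assembly than the GRCm39 named for the deposited values, at chr3:83025903-83026152 (Fga, plus strand), chr3:83049864-83050113 (Fgb, minus strand), chr3:83007474-83007723 (Fgg, plus strand) and chr17:57228137-57228386 (C3, minus strand). Capitals mark matches on either strand to the STAT letters TTCNNNGAA, the C/EBP letters TTGCNNAA and the AP-1 letters TGANTCA.
Fga: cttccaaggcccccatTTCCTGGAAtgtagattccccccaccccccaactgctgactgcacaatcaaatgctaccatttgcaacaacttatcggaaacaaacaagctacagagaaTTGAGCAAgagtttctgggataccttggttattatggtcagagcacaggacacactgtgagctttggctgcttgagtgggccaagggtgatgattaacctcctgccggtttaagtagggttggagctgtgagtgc
Fgb: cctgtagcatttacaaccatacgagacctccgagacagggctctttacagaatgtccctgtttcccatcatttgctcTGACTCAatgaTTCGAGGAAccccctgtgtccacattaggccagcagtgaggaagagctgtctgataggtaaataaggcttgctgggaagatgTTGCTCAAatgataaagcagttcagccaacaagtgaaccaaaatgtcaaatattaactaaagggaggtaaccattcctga
Fgg: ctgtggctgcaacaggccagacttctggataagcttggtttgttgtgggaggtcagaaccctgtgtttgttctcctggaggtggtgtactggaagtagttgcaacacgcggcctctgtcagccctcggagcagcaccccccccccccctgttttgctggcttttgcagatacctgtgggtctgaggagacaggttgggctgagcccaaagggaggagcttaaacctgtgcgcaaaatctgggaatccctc
C3: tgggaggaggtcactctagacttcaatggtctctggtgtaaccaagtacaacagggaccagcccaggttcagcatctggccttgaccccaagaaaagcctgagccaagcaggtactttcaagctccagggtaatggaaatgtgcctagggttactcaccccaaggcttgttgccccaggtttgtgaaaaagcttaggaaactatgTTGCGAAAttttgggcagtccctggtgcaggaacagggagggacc

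Fga held a STAT match from -234 to -226 and a C/EBP match from -135 to -128 relative to its start. Fgb held an AP-1 match from -173 to -167, a STAT match from -162 to -154 and a C/EBP match from -80 to -73. C3 held a C/EBP match from -45 to -38, and Fgg held no match to these letters. Over 32851 mouse promoter windows of the same length, 7.02% held the STAT letters, 9.56% the C/EBP letters and 6.75% the AP-1 letters. Among 29 windows of the genes described here that the table held, several genes having more than 1 start, STAT matches occurred in those of C7, Fga and Fgb, C/EBP matches in those of C3, Fga, Fgb and Procr, and AP-1 matches in windows of C3ar1, F2r, F3, Fgb, Procr and Tfpi2. C1qa, C2, C4b, Cfb, Cfi, Masp1, Serping1 and Thbd had no window and were not searched. Within the 29 windows, a match to the NF-kB consensus was found upstream of C3ar1 alone, against 4.65% of all windows. One to the interferon response element was found upstream of Cd59a alone, against 2.98%. The HNF1 consensus, present in 0.00913% of all windows, was found in none of the 29. None of the motif matches overlapped in the 4 sequences shown, and a match is a description of letters, not a binding site.

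**Figure D2:**
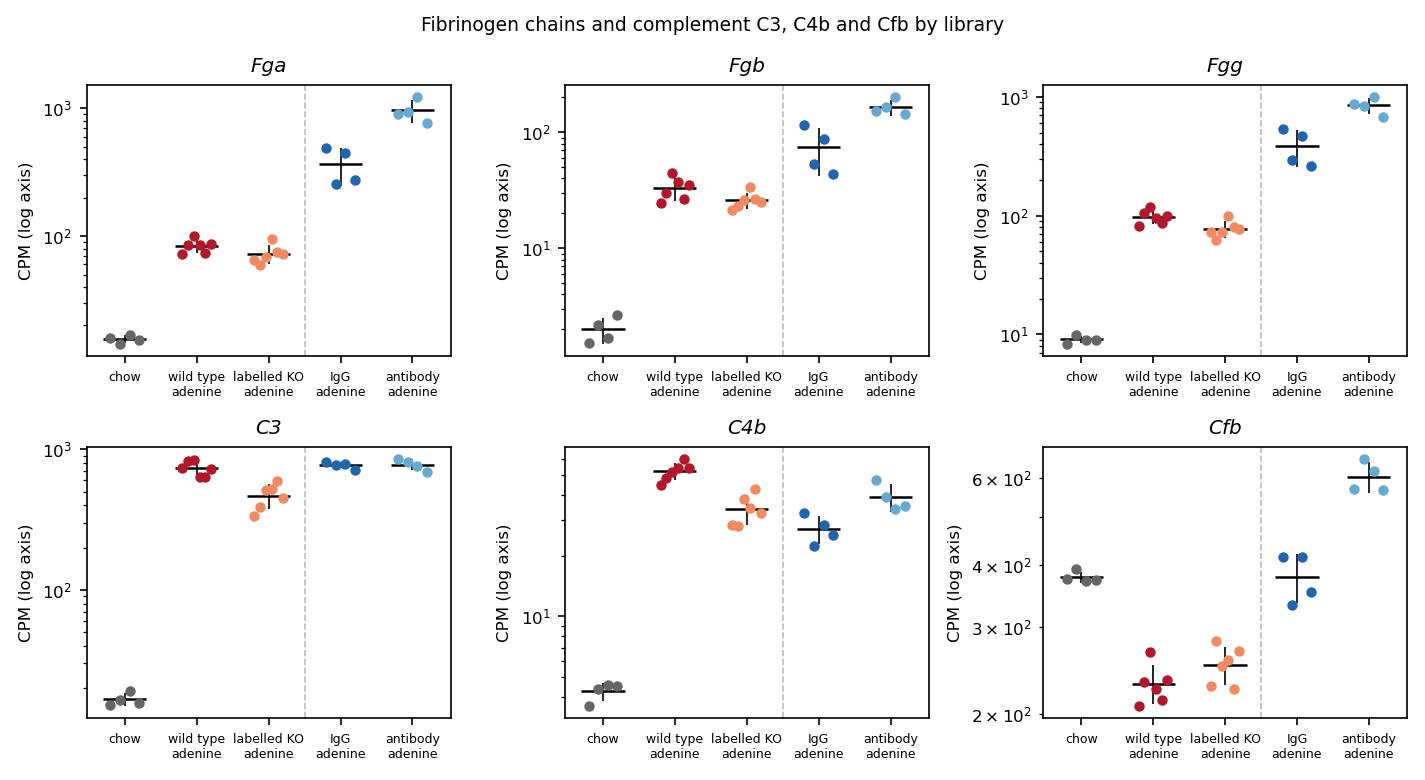
CPM on a log axis for the fibrinogen chains, C3, C4b and Cfb in each of the 24 libraries, with the group mean as a horizontal line and the SD as a vertical bar; the dashed line separates the knockout experiment from the antibody experiment, whose CPM were scaled separately. C3 stands at 15.3 to 19.1 CPM in chow and 637 to 845 CPM in wild-type adenine, and all 4 antibody libraries lie above all 4 IgG libraries for each fibrinogen chain and for Cfb.

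Genes grouped under clot formation moved in both directions. F3, the cell-surface starter of coagulation, rose from 14.5 to 17.4 CPM in chow to 43.1 to 50.5 CPM in wild-type adenine (3.02-fold, log2 change 1.59 ± 0.07). F7 went from 7 reads over 4 libraries to 192 reads over 6 (log2 change 3.72 ± 0.48), F10 rose 2.5-fold and F13a1, the catalytic subunit of factor XIII and a known gene of macrophages and platelets, 3.62-fold. F5, the cofactor of factor Xa, fell from 8.56 to 11 CPM to 3.20 to 4.48 CPM (log2 change -1.36 ± 0.14). F2r, the thrombin receptor PAR1, fell from 44.2 to 48.8 CPM to 13.3 to 16.2 CPM (log2 change -1.68 ± 0.09).

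Of 4 genes grouped as restraints on clotting, 3 fell and Procr did not pass. Tfpi2, a protease inhibitor of the tissue factor pathway inhibitor family, was at 15.0, 14.5, 15.7 and 15.3 CPM in chow and at 4.15, 4.33 and 5.80 CPM on adenine, a separation of 3.32-fold (log2 change -1.73 ± 0.12). Tfpi itself fell 2.07-fold, and Thbd, thrombomodulin, which turns thrombin toward protein C, fell 1.43-fold. Procr, the receptor that presents protein C, was at 2.45 to 3.41 CPM in chow and 2.94 to 4.17 CPM on adenine (log2 change 0.28, 95% interval -0.04 to 0.59, adjusted p = 0.0901), but with upper-quartile scaling it was called higher (0.50, adjusted p = 0.00521). Endothelial markers, summed, were at 134 to 160 TPM in chow and 73.1 to 95.1 TPM on adenine, and their part in the lower Thbd, Tfpi and F2r was not tested.

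Among 36 other complement genes, 11 rose, 11 fell and 3 did not pass, with a median log2 change of 0.09. The remaining 11 were not tested, C4a because it was not quantified and the others because they were below the filter. Over all genes tested, 84.9% were called. C8a, a chain of the pore complex, fell from 60.9 ± 2.33 to 2.40 ± 1.53 CPM (SD, n = 4 and 6), and Colec11, a lectin pathway collectin, had a log2 change of -2.97. Leukocyte complement receptors rose, Itgam (the alpha chain of CR3) by 4.15, C5ar2 by 3.22 and Itgax by 2.67 on the log2 scale. Among 38 other genes of coagulation and fibrinolysis, 12 rose, 16 fell, 4 did not pass and 6 were below the filter. Serpina10, an inhibitor of factor Xa that works with protein Z, rose from 2.49 ± 0.263 to 67.4 ± 8.48 CPM. F13b, the carrier subunit of factor XIII, fell from 73.5 ± 6.03 to 5.75 ± 1.66 CPM, the reverse of F13a1, and Cpb2 and Serpinf2, inhibitors of fibrin breakdown, had log2 changes of -2.67 and -2.58.

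In libraries labelled knockout against wild type, both on adenine, C3, C4b, F3 and Masp1 were lower and Cd55, Serping1, F2r and Tfpi2 were higher, while C1q chains showed no difference past the threshold. Of 33 genes, 10 rose, 8 fell, 14 did not pass and Hc was below the filter, beside 46.4% of all genes called, 25.1% higher and 21.3% lower. The median log2 change of -0.06 lay near that of all genes, -0.02, and the median size of change was 0.31 against 0.20. CPM ranges did not overlap for 8 members, beside 24.7% of all genes. With upper-quartile scaling 7 members rose and 10 fell, and the share of all calls that were higher went from 54.1% to 40.7%. The 8 without overlap were C4b, Masp1, C3, Cd55, Cd59a, Serping1, F3 and F2r.

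C3 was at 337, 484 and 594 CPM (lowest, median, highest) in libraries labelled knockout, below every wild-type adenine library (log2 change -0.65 ± 0.11, adjusted p = 0.000156), and still far above chow. C4b was at 28.1, 33.6 and 42.6 CPM, also without overlap with wild type (log2 change -0.62 ± 0.09, adjusted p = 2.83e-05). F3 was at 27.6, 29.5 and 32.8 CPM against 43.1 to 50.5 CPM (log2 change -0.68 ± 0.05, adjusted p = 3.60e-08). Masp1 was lower as well, with a log2 change of -0.56 ± 0.10, and C3ar1 at -0.35 ± 0.11. Of 6 markers of injured tubule, 4 were lower too (median log2 change of the list -0.55), with overlapping sums of 485 to 800 TPM against 642 to 912 TPM, and their part in the lower C3, C4b and F3 was not tested.

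Fibrinogen differed less. Fgg was at 62.4, 74.5 and 99.3 CPM in libraries labelled knockout and 81.6 to 118 CPM in wild type, with overlapping ranges and a log2 change of -0.34 ± 0.10 (adjusted p = 0.00650). Fgb also had -0.34 (± 0.13, adjusted p = 0.0386), a call lost when any of labelled knockout replicates 1, 2, 3 or 6 or wild-type replicates 3, 4 or 6 was left out (adjusted p up to 0.114). Fga did not pass, at -0.21 ± 0.10 (adjusted p = 0.0817), but passed without labelled knockout replicate 4 or wild-type replicate 1 (adjusted p from 0.00563). Fgg exceeded Fga in every library of both groups, by a TPM ratio of 1.32 to 1.43 in those labelled knockout. Of 7 hepatocyte markers tested, 6 were higher and 1 lower in libraries labelled knockout, and their part in the fibrinogen values was not tested.

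Of the regulators, Cd55 was at 3.66, 4.15 and 4.61 CPM against 1.49 to 2.38 CPM in wild type, a 2.19-fold difference (log2 change 1.13 ± 0.11, adjusted p = 4.43e-07). Serping1 was at 47.1, 56.8 and 75.1 CPM against 30.0 to 45.0 CPM (log2 change 0.66 ± 0.11), and Cd59a had a log2 change of 0.34 ± 0.07. All 3 were higher in every library labelled knockout than in any wild-type library, and all 3 remained below chow in CPM. Mean TPM of Serping1, not corrected for the shift of the median gene, was 34.7 in chow and 41.9 in libraries labelled knockout. Of 6 fibroblast markers, 3 were higher in libraries labelled knockout, with overlapping sums of 67.8 to 104 TPM against 52.3 to 86.2 TPM, and their part in the higher Serping1 was not tested. Cfi did not pass (log2 change -0.04 ± 0.06).

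Among clotting genes, F2r was at 18.9, 23.5 and 26.8 CPM against 13.3 to 16.2 CPM (log2 change 0.66 ± 0.08, adjusted p = 3.11e-06). Tfpi2 had a log2 change of 0.66 ± 0.11 with overlapping ranges, F5 of 0.47 ± 0.13, Tfpi of 0.24 ± 0.07 and Thbd of 0.17 ± 0.07. Procr had -0.33 ± 0.13 (adjusted p = 0.0436). Tfpi did not pass under upper-quartile scaling, at 0.17 (adjusted p = 0.0534), or with an offset for transcript length, at 0.14 (adjusted p = 0.160). The call of Thbd was lost when any of labelled knockout replicates 1, 2 or 6 or wild-type replicates 1, 3, 5 or 6 was left out (adjusted p up to 0.110). That of Procr was lost without any of labelled knockout replicates 1, 3, 4 or 6, wild-type replicates 1, 2, 3, 5 or 6 or chow replicates 3 or 4 (adjusted p up to 0.102). F7, F10 and F13a1 did not pass, with log2 changes of -0.27, -0.14 and -0.28. All 8 endothelial markers were higher in libraries labelled knockout, with a summed level of 107 to 182 TPM against 73.1 to 95.1 TPM, and all 8 proximal tubule markers were higher as well. Their part in the higher Cd55, F2r, Thbd and Tfpi was not tested.

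C1qa, C1qb and C1qc had log2 changes of 0.05, 0.00 and -0.07, with 95% intervals of -0.11 to 0.22, -0.17 to 0.17 and -0.24 to 0.09. Macrophage markers, summed, overlapped too, at 201 to 325 TPM in libraries labelled knockout and 206 to 397 TPM in wild type, and 1 of 10 was called higher and 1 lower. Cfd, nearly absent in wild-type adenine libraries, was at 1.53, 0.147, 0.282, 0.414, 3.30 and 0.527 CPM in those labelled knockout (log2 change 3.68 ± 0.88, adjusted p = 0.00224), with ranges that overlapped narrowly and low values throughout. The filter on low counts was applied with the chow libraries included, where the mean of Cfd was higher, so the size of this change is uncertain too. Of 4 adipocyte markers tested, 0 were called here. Their log2 changes ran from -0.07 to 1.40, with a median of 0.05. Sums of these markers overlapped, at 39.6 to 53.8 TPM against 41.5 to 55.4 TPM in wild type, and the part of fat was not tested. C6 passed with a log2 change of 0.61 ± 0.23 (adjusted p = 0.0333), a call lost when any of labelled knockout replicates 3, 5 or 6 or wild-type replicates 3 to 6 was left out (adjusted p up to 0.0864).

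**Figure D3:**
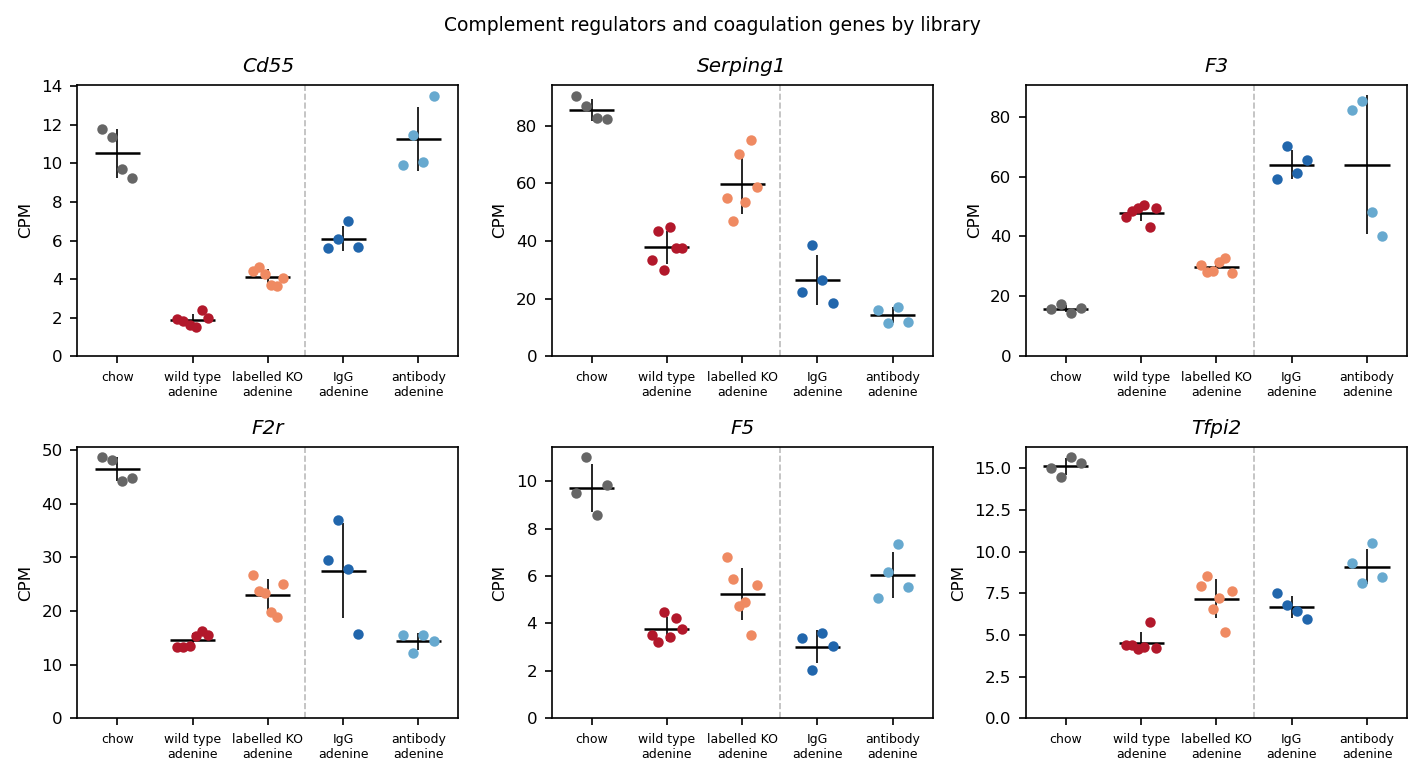
CPM of Cd55, Serping1, F3, F2r, F5 and Tfpi2 in each of the 24 libraries, with group mean (line) and SD (bar), the experiments divided by a dashed line. Libraries labelled knockout lie between chow and wild-type adenine for all 6 genes by their means, and Cd55 is higher with the antibody than with IgG while Serping1 and F2r are lower.

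Among the 36 other complement genes, 8 were higher and 1 lower in libraries labelled knockout. Of the rest, 16 did not pass and 11 were below the filter or, for C4a, not quantified, beside 46.4% of all genes tested being called. C8a was at 7.98 ± 1.10 CPM against 2.40 ± 1.53 (SD, n = 6 each), and C8g, C1rl, C1s2 and C1qbp had log2 changes of 0.78, 0.65, 0.65 and 0.45. Among the 38 other coagulation and fibrinolysis genes, 12 were higher, 6 lower, 14 did not pass and 6 were below the filter. F13b was at 25.4 ± 9.79 CPM against 5.75 ± 1.66, and Proc, the precursor of the anticoagulant activated protein C, at 59.1 ± 6.44 against 31.7 ± 2.94 CPM. Proz, Serpinf2 and the vitamin K enzyme Vkorc1 had log2 changes of 0.92, 0.72 and 0.72.

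Set against chow instead, the libraries labelled knockout had 20 members higher and 10 lower, beside 40.2% and 39.9% of all genes (80.1% called), and 28 without overlap, beside 69.7%. The chow and knockout libraries also enter the comparisons above. C3 stood 28.1-fold above chow, against 44.0-fold in wild type, and Cd55 2.56-fold below chow, against 5.59-fold. C2 and Procr did not pass (log2 changes -0.19 and -0.05).

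With the antibody to human ENPP1 the fibrinogen chains, Cfb, F5 and Cd55 were higher than with IgG, and C1q, the fragment receptors, properdin and Masp1 were lower. Of 33 genes, 8 rose and 16 fell, beside 55.3% of all genes called, 27.2% higher and 28.0% lower, 7 did not pass, and Cfd and F7 were below the filter. The median log2 change was -0.38 over the 31 members tested against -0.04 over all genes, with a median size of 0.94 against 0.36. CPM ranges did not overlap for 22 members, beside 50.6% of all genes. Upper-quartile scaling moved the median of all genes by -0.16 and gave 8 members higher and 17 lower, while the share of all calls that were higher went from 49.3% to 31.1%.

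Fga was at 487, 257, 449 and 274 CPM with IgG and at 908, 943, 1229 and 766 CPM with the antibody. Every antibody library was above every IgG library, by 2.62-fold overall (log2 change 1.39 ± 0.22, adjusted p = 0.000420). Fgg was at 536, 293, 466 and 261 CPM with IgG and at 867, 838, 999 and 679 CPM with the antibody (log2 change 1.12 ± 0.22, adjusted p = 0.00141). Fgb was at 116, 53.3, 87.0 and 44.0 CPM and at 152, 164, 202 and 143 CPM (log2 change 1.14 ± 0.26, adjusted p = 0.00352). IgG replicates 1 and 3 were the high IgG libraries for all 3 chains. The ratio of Fga to Fgb TPM was 8.02 to 11.8 with IgG and 10.3 to 11.6 with the antibody.

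The hepatocyte list moved in the same direction here, from a summed 286 to 467 TPM with IgG to 1101 to 1539 TPM with the antibody, mostly through Cyp2e1, an enzyme that mouse proximal tubule also expresses, at means of 326 and 2055 CPM. Of 7 hepatocyte markers tested, 4 were called higher, 0 lower and 3 did not pass, with a median log2 change of 0.61. Among them, defining liver genes behaved unequally. Alb was at a mean of 1.91 CPM with IgG and 8.89 CPM with the antibody, Apoa1 at 0.369 and 0.354 CPM, Apoc3 at 3.82 and 4.23 CPM, and Ahsg at 0 in all 8 libraries. All 8 proximal tubule markers were higher with the antibody, at a summed 2931 to 3642 TPM against 1224 to 1722 TPM, and all 6 markers of injured tubule were lower. The part of tubule content in the higher fibrinogen was not tested.

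C3 did not differ detectably, at 806, 772, 788 and 717 CPM with IgG and 851, 815, 760 and 689 CPM with the antibody (log2 change 0.01, 95% interval -0.18 to 0.21, adjusted p = 0.899), and its sign turned with upper-quartile scaling (-0.14). Cfb was at 416, 332, 415 and 353 CPM and at 570, 655, 621 and 567 CPM, without overlap (log2 change 0.67 ± 0.10, adjusted p = 0.000248). C4b was called higher (log2 change 0.53 ± 0.13, adjusted p = 0.00525), but with an offset for transcript length the value was -0.30 (adjusted p = 0.152). Its main transcript held 68.7% to 73.7% of its reads with IgG and 87.0% to 90.7% with the antibody, and mean TPM was 17.2 and 12.2. The direction for C4b therefore depended on how length was treated.

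C1qa was at 56.0, 82.6, 43.6 and 34.7 CPM with IgG and at 25.6, 18.4, 22.4 and 15.7 CPM with the antibody. IgG replicate 2 was the highest library for all 3 chains, and no antibody library reached the lowest IgG library. Log2 changes were -1.40 ± 0.24 for C1qa, -1.44 ± 0.21 for C1qb and -1.51 ± 0.24 for C1qc, with adjusted p-values of 0.000736, 0.000288 and 0.000460. C3ar1 was at 13.5, 21.9, 11 and 8.90 CPM with IgG and at 4.82, 4.11, 5.58 and 3.67 CPM with the antibody, a 3.04-fold difference. C5ar1, Cfp, F10 and F13a1 were lower by 2.65-, 2.02-, 2.36- and 2.01-fold. Macrophage markers fell alongside, 9 of 10 called lower, from a summed 206 to 466 TPM to 77.2 to 127 TPM, and neutrophil markers were lower in all 3 that could be tested. The part of macrophage content in the lower C1q and receptors was not tested.

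**Figure D4:**
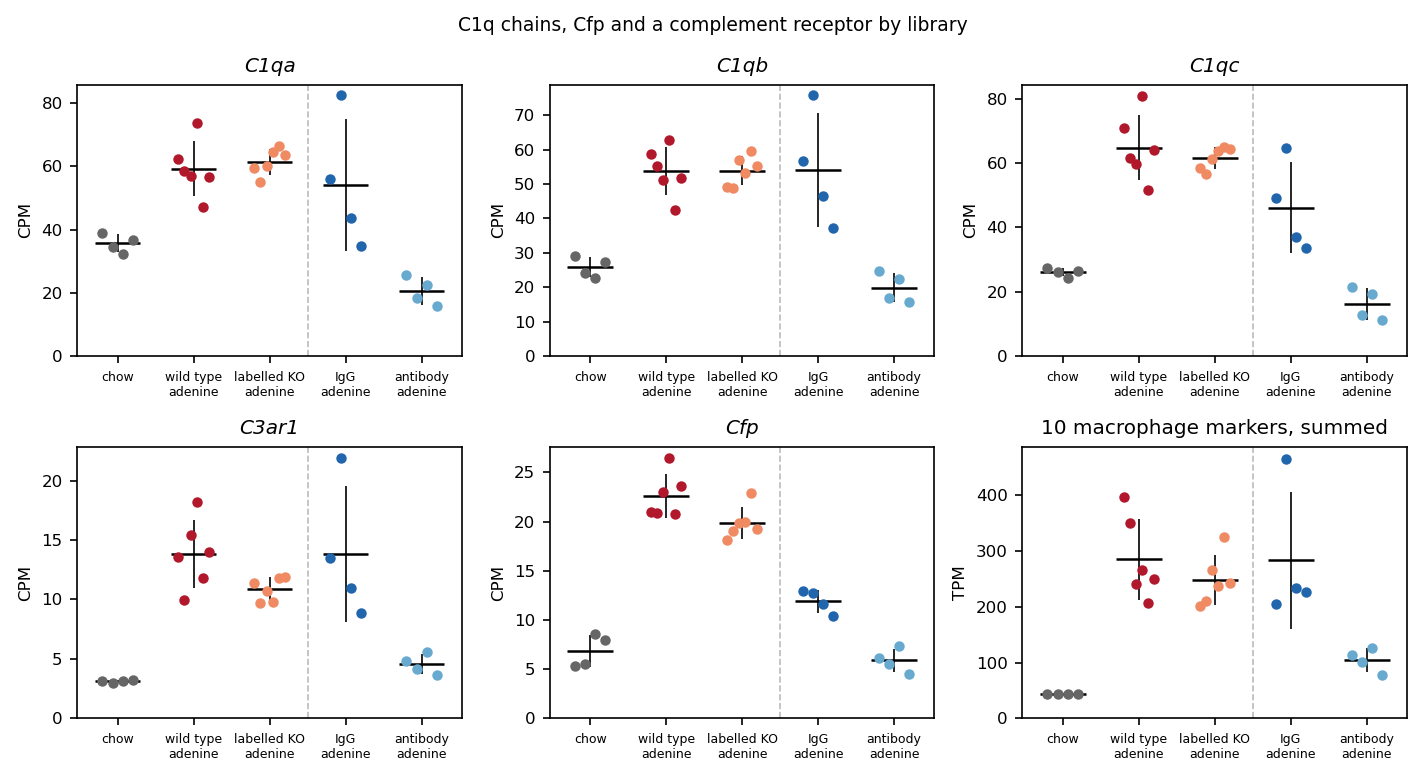
CPM of the 3 C1q chains, C3ar1 and Cfp, and summed TPM of 10 macrophage markers, in each of the 24 libraries with group mean (line) and SD (bar), the experiments divided by a dashed line. The C1q chains overlap between wild-type and labelled knockout adenine libraries, and every antibody library lies below every IgG library in all 6 panels.

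Regulators split in direction. Cd55 was at 5.61, 6.10, 7.02 and 5.65 CPM with IgG and at 9.91, 11.5, 10.1 and 13.5 CPM with the antibody (log2 change 0.88 ± 0.12, adjusted p = 0.000228). Serping1 was lower, at 22.1, 38.7, 26.6 and 18.4 CPM against 16.1, 11.5, 17.1 and 12 CPM (log2 change -0.90 ± 0.21), as was Cd59a (-0.30 ± 0.07). Fibroblasts are known to express Serping1, and all 6 fibroblast markers were lower, at a summed 45.5 to 87.8 TPM against 18.0 to 27.9 TPM, and their part was not tested. Cfi and C2 did not pass, each with a log2 change of 0.06. C6 had -0.97 ± 0.36, a call lost without any of the antibody libraries or IgG replicates 1 or 2 (adjusted p up to 0.169), and C7 and Hc did not pass.

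F5 was at 3.40, 2.02, 3.59 and 3.04 CPM with IgG and at 5.09, 6.15, 7.36 and 5.55 CPM with the antibody (log2 change 1.01 ± 0.19, adjusted p = 0.00117). Tfpi2 was also higher, by 1.36-fold. F2r fell from 29.6, 37.0, 27.9 and 15.7 CPM to 15.5, 12.1, 15.5 and 14.4 CPM (log2 change -0.94 ± 0.21), and Procr from 1.5 to 2.82 CPM to 0.939 to 1.09 CPM (log2 change -1.02 ± 0.22). F3 had an equal mean of 64.0 CPM in both groups, but the antibody libraries split, with 82.4 and 85.2 CPM in replicates 1 and 2 and 48.2 and 40.1 CPM in replicates 3 and 4. Thbd had a log2 change of -0.40 ± 0.14, a call lost without any of antibody replicates 2 or 4 or IgG replicates 2 to 4 (adjusted p up to 0.104), and Tfpi did not pass. F7 had 67 reads over the IgG libraries and 5 over the antibody libraries, and Cfd 0 and 2 reads, where 0 reads allow up to 3.

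Among the other complement genes 6 were higher, 10 lower, 7 did not pass and 13 were below the filter or, for C4a, not quantified. Over all genes tested, 55.3% were called. C8a was at 10.3 ± 1.82 CPM with the antibody and 2.47 ± 1.33 CPM with IgG (SD, n = 4 each), while C5ar2, Itgam, Itgb2 and Csmd1 had log2 changes of -1.27, -1.21, -1.04 and -0.97, the last lost without IgG replicate 2 (adjusted p = 0.0515). Among the other coagulation and fibrinolysis genes 11 were higher, 8 lower, 12 did not pass and 7 were below the filter. F13b was at 93.6 ± 25.3 against 12.8 ± 3.61 CPM and Serpinf2 at 175 ± 10.8 against 57.9 ± 16.6 CPM. Serpine2 and Vwf, the von Willebrand factor of endothelium and platelets, had log2 changes of -1.44 and -1.07.

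The response in libraries labelled knockout and the response to the antibody were compared in a fit of the 20 adenine libraries. Their difference passed for 26 of 33 genes, 17 with a higher and 9 with a lower knockout-minus-antibody value, including F7 and Hc, each of which was below the filter on low counts in 1 of the experiments, beside 37.9% of all 17113 genes called, 16.3% higher and 21.6% lower. Upper-quartile scaling gave 18 and 8 members, and moved the share of all calls with a higher value from 43.0% to 69.1%. The difference was -1.68 ± 0.24 for Fga, -1.56 ± 0.30 for Fgb and -1.54 ± 0.24 for Fgg, where the chains were higher with the antibody and at or below wild type in the labelled knockout. It was 1.38, 1.37 and 1.37 for the C1q chains, 1.49 ± 0.25 for Serping1 and 1.52 ± 0.22 for F2r. Serping1 and F2r rose in the libraries labelled knockout and fell with the antibody. For C4b it was -1.22, and -0.46 (adjusted p = 0.0686) with an offset for transcript length. Cd55 and Tfpi2 rose in both, with differences of 0.17 (95% interval -0.18 to 0.52) and 0.14 (-0.21 to 0.49) that did not pass. The intervention, the sex of the mice, the control group and the depth all change between the experiments, so their parts in these differences cannot be told apart.

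**Figure D5:**
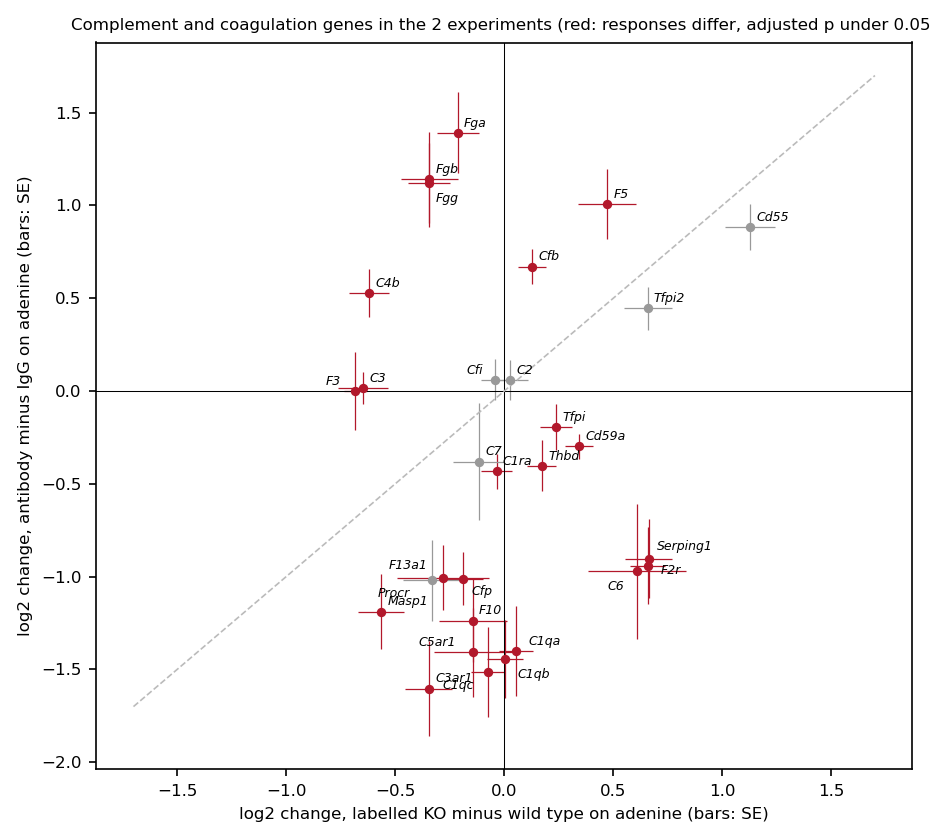
Log2 change in libraries labelled knockout against wild type (x axis) and with the antibody against IgG (y axis), both on adenine, for the 30 genes tested in both, with SE as bars, the dashed line marking equal responses and red marking a difference past an adjusted p of 0.05. Cd55 and Tfpi2 lie near the dashed line, the fibrinogen chains at the upper left, and Serping1 and F2r at the lower right.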

How the data were processed

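Per the submitters' processing notes, transcripts were quantified with Salmon and the genome was GRCm39; FastQC, DESeq and DESeq2 are listed too, without versions. Expected counts per transcript were deposited by the authors unnormalized. TPM values, also deposited by the authors, were summed per gene. They were used to order genes, sum marker lists, form ratios of fibrinogen chains and set beside count results, and no change was called from them. Effective lengths, per the file headers, entered 1 alternative.

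Of 116755 transcripts, 115636 (99.0%) matched the GENCODE M21 annotation by identifier; the 1119 others, with 0.450% to 0.570% of a library's reads, were left out. Expected counts were summed to 35413 genes and rounded. Groups follow the sample titles. edgeR 4.0.16 (R 4.3.3; filterByExpr, TMM, quasi-likelihood F test, two-sided, Benjamini-Hochberg over all genes tested, threshold 0.05) was fitted to the 16 libraries of the knockout experiment, the 8 of the antibody experiment, and, for the difference of responses, the 20 on adenine. Levels are CPM, and errors of log2 changes are SE. The fit was tested on simulated data.

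All 33 genes were named. From lists of 36 other complement genes and 38 other coagulation and fibrinolysis genes, the 5 largest called log2 changes per comparison, at a mean of at least 1 CPM in a group, were named, except 1 gene that is not reported here. The genes and lists were chosen with earlier results of these data known. Alternatives were RLE and upper-quartile scaling, no filter, mitochondrial genes left out, DESeq2 1.42.0, limma 3.58.1 voom, a transcript-length offset, summed near-identical genes, a replicate block and each library left out. Added after seeing the data was the reassignment of Gm20547, a read-through model over C2 and Cfb. RNA was sequenced from stranded libraries made from 400 ng, per the labels' protocols. Depth limits genes of few reads, such as Cfd, F7 and Hc.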

Additional observations from a re-analysis of the deposited data

Results flagged for a closer look

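In 7 of the 164 gene and group combinations of 4 to 6 libraries examined, a single library stood apart from the rest of its group, where chance flags about 5% of groups. These were Cfd in antibody replicate 2 at 0.0464 CPM, with the other 3 at 0, Hc in chow replicate 3 at 0.0495 CPM, with the other 3 at 0, and F7 in wild-type adenine replicate 1 at 2.10 CPM and in IgG replicate 2 at 0.596 CPM. The remaining 3 were C7 in IgG replicate 2 at 4.30 CPM, C5ar1 in the labelled knockout replicate 5 at 8.32 CPM and Tfpi2 in wild-type adenine replicate 5 at 5.80 CPM. The first 2 rest on 1 or 2 reads each.

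The labelled knockout response minus the antibody response passed the test for 26 genes. It was positive, so that the labelled knockout value was the higher, for C1qa (1.38), C1qb (1.37), C1qc (1.37), C1ra (0.32), Masp1 (0.55), Cfp (0.75), C6 (1.5), C3ar1 (1.18), C5ar1 (1.19), Cd59a (0.56), Serping1 (1.49), F7 (2.90), F10 (1.02), F13a1 (0.65), F2r (1.52), Tfpi (0.36) and Thbd (0.50), all on the log2 scale. It was negative for C4b (-1.22), Cfb (-0.62), C3 (-0.74), Hc (-1.45), Fga (-1.68), Fgb (-1.56), Fgg (-1.54), F3 (-0.76) and F5 (-0.61). F7 was below the filter on low counts in the antibody experiment and Hc in the knockout experiment, so each value rests on an experiment with few reads. With an offset for transcript length, the calls of C4b (-0.46, adjusted p = 0.0686) and Hc (-2.37, adjusted p = 0.0807) were lost. So were those of C1ra, Masp1, F5, F13a1 and Tfpi (adjusted p = 0.0671, 0.0908, 0.0580, 0.0685 and 0.0618). Serping1, F2r, C6, Cd59a and Thbd passed in opposite directions in the separate experiments, as did Fgb and Fgg. So did C4b, whose antibody value turned to -0.30 (adjusted p = 0.152) with that offset. The experiments also differ in the sex of the mice and in depth, which cannot be told apart from the interventions.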

How the results depend on the processing

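Counts of the 33 genes called in each direction stayed within 1.5 times their main value under every alternative run. Leaving out each library gave 20 to 22 higher and 10 to 11 lower for wild-type adenine against chow, 8 to 10 and 6 to 9 for labelled knockout against wild type, 20 to 21 and 10 to 11 for labelled knockout against chow, 8 and 14 to 16 for antibody against IgG, and 13 to 17 and 8 to 9 for the difference of responses. Summing near-identical genes changed no call of a member. Adding Gm20547 reads to C2 left 16 members higher, from 17, in the difference of responses, where Masp1 moved just over the threshold; adding them to Cfb changed no call of a member; C4a could not be summed with C4b.

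Upper-quartile scaling moved the median of all genes by 0.23 for wild-type adenine against chow, 0.16 for labelled knockout against chow, -0.16 for antibody against IgG and 0.16 for the difference of responses. The share of calls that were higher went from 54.1% to 40.7% for labelled knockout against wild type, from 49.3% to 31.1% for antibody against IgG, and from 43.0% to 69.1% (4495 genes higher and 2014 lower, from 2788 and 3695) for the difference of responses.

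Signs that turned under a setting belonged to small changes, except C4b. With upper-quartile scaling, C2 went to 0.0098 against chow, C1qa, C1qb, C2 and Enpp1 to -0.0096, -0.059, -0.037 and -0.017 for labelled knockout against wild type, Procr to 0.11 for labelled knockout against chow, C2, C3 and Cfi to -0.095, -0.14 and -0.094 for the antibody, and C2 and Enpp1 to 0.047 and 0.13 for the difference. With the length offset, C2 went to 0.16 against chow and -0.050 for labelled knockout against wild type, C2 and Procr to 0.11 and 0.0070 for labelled knockout against chow, and C4b, C2 and Enpp1 to -0.30, -0.0048 and 0.22 for the antibody. For the antibody, F3 and Enpp1 both went to 0.014 with RLE scaling and to 0.014 and 0.020 with DESeq2. Enpp1 in the difference went to 0.020 without mitochondrial genes and 0.42 with voom.

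Leaving out single libraries turned signs for labelled knockout against wild type in C1qa (-0.0050 to 0.13), C1qb (-0.055 to 0.055), C1qc (-0.13 to 0.0025), C1ra (-0.076 to 0.012) and C2 (-0.022 to 0.099), and for labelled knockout against chow in Procr (-0.14 to 0.048). For the antibody they turned in C2 (-0.025 to 0.14), C3 (-0.028 to 0.073), Cfi (-0.040 to 0.16), F3 (-0.17 to 0.17) and Enpp1 (-0.67 to 0.30), and for the difference in C7 (-0.12 to 0.40) and Enpp1 (-0.32 to 0.66). In the difference, the calls of C1ra, Masp1, F5, F13a1 and Tfpi were lost under several settings, the length offset among them. Their adjusted p reached 0.117, 0.160, 0.118, 0.0845 and 0.0953 when a library was left out. The calls of C4b and Hc were lost with the length offset too (adjusted p = 0.0686 and 0.0807). Procr passed with upper-quartile scaling (0.77, adjusted p = 0.0195) and without mitochondrial genes (0.65, adjusted p = 0.0411). For labelled knockout against wild type, Cfp and Fga passed with upper-quartile scaling (-0.25 and -0.28, adjusted p = 0.0379 and 0.0283), where C6, Tfpi and Thbd were lost (adjusted p = 0.0548, 0.0534 and 0.175). Fgb, Tfpi, Thbd and Procr were lost with the length offset (adjusted p = 0.0510, 0.160, 0.0512 and 0.0786), Fgb and Procr without mitochondrial genes (0.0514 and 0.0549), and Thbd and Procr without the filter (0.0538 and 0.0724). Against chow in wild type, Procr passed with upper-quartile scaling (0.50) and C2 was lost without mitochondrial genes (adjusted p = 0.0567). For the antibody, Tfpi passed with upper-quartile scaling (-0.35, adjusted p = 0.0331) and C6 was lost with voom and the length offset (adjusted p = 0.0709 and 0.0537). Calls were gained for Procr against chow in wild type without wild-type replicate 4 or chow replicate 2, for C2 in labelled knockout against chow without labelled knockout replicates 2 or 4 or wild-type replicates 3 or 5, and for labelled knockout against wild type in Cfb without wild-type replicate 3 and Cfp without labelled knockout replicate 5. The cause of these changes was not tested.

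The replicate numbers share no more than a number: same-number libraries correlated at -0.144 to 0.0684, and 2 of 12 libraries labelled knockout or wild-type adenine, and 0 of 8 in the antibody experiment, correlated best with their own number. With the replicate block, 8 members were higher and 8 lower for labelled knockout against wild type (C6 and Thbd lost, adjusted p = 0.0626 and 0.0504), 14 and 8 for the difference of responses, where Enpp1 went to 0.31, and counts for the other comparisons were as in the main fit.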
